A study of Mus musculus with 8 samples.

Results

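Mouse neural stem cells that had been returned to pluripotency with 2 factors (NSC 2F iPSCs) were compared with neural stem cells (NSCs), and mouse embryonic stem cells (ESCs) served as the level to be reached. The comparison rests on 2 of the 8 arrays of the series, chosen by their labels, plus the ESC array. Each cell sample has 1 array, so no difference below has a replicate check and none was given a p-value. The NSC 2F iPSCs are iPSCs made from brain-derived NSCs, of the strain B6D2F1/J, with retroviral *Oct4* and *Klf4*. They were kept on feeder cells in 2i medium, which blocks the kinases MEK and GSK3. The NSCs and the ESCs are of the same labelled strain, and both are described as carrying a Tet-On background, which is not mentioned for the NSC 2F iPSCs. How the ESCs were cultured, whether the NSC array came from the very culture that was reprogrammed, the sex of the cells and whether a line is a single clone are not given in the sources used here. Other arrays of the series serve as further levels. They are mouse embryonic fibroblasts (MEFs), induced neural stem cells made from MEFs (iNSCs) and other pluripotent lines. MEF 4F iPSCs were made from MEFs with *Oct4*, *Sox2*, *Klf4* and *Myc*. The iNdiPSC clones were made from iNSCs with *Oct4* and *Klf4*. Effects of strain, passage and donor cell on these levels were not tested.

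NSCs self-renew in culture and give rise to neurons, astrocytes and oligodendrocytes. They already express *Sox2*, a transcription factor that neural and pluripotent cells share, whereas *Oct4* (*Pou5f1*) is silent in them. During reprogramming the exogenous factors switch on the endogenous pluripotency genes, which then keep each other active, and the program of the donor cell is shut down. In female mouse cells reprogramming also reactivates the X chromosome that the noncoding RNA *Xist* had silenced, and naive pluripotent cells are known for keeping both X chromosomes active.

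The arrays hold 25697 probes, and values were normalized over all 8 arrays on a log2 scale. A probe was taken as detected at a detection p-value below 0.01, which held for 44.6% of probes in NSC 2F iPSCs, 44.1% in NSCs and 43.1% in ESCs (43.1 to 47.2% over the 8 arrays). The lowest level of a detected probe was 5.16 in NSC 2F iPSCs, 5.19 in NSCs and 5.27 in ESCs. Where a probe was not detected in a sample, its level there was raised to that floor for the fold, which is given as a lower bound ("at least"). Levels of different genes come from different probes and are not compared with one another. Markers matched the labels of both cell types. All 8 pluripotency markers were detected in NSC 2F iPSCs, against 1 of 8 in NSCs (*Esrrb*) and 8 of 8 in ESCs, and of 7 measured NSC markers 2 were detected in NSC 2F iPSCs (*Nes* and *Slc1a3*), against 6 in NSCs and 2 in ESCs. *Pax6* was the NSC marker that was not detected in NSCs.

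Of 13065 probes detected in NSC 2F iPSCs or NSCs, 2636 (20.2%) were at least 2-fold higher in NSC 2F iPSCs and 2663 (20.4%) at least 2-fold lower. With undetected values at the floor these counts were 2242 and 2285, and without the background correction they were 1273 and 1335. The even split follows in part from quantile normalization, and with scaling to the 75th percentile 3072 probes were higher and 2351 lower. Differences of at least 16-fold were seen for 222 probes that were higher and 171 that were lower in NSC 2F iPSCs. In terms of detection, 1721 probes were found in NSC 2F iPSCs and not in NSCs, and 1245 of these (72.3%) were detected in ESCs as well. In the other direction, 1609 probes were found in NSCs and not in NSC 2F iPSCs, and 1383 of these (86.0%) were also undetected in ESCs. With 1 probe for each gene, 1898 of 8894 genes (21.3%) were at least 2-fold higher and 1878 (21.1%) at least 2-fold lower in NSC 2F iPSCs, the background for the gene groups below. On the same genes, 93.6% lay within 2-fold of ESCs in NSC 2F iPSCs, the background for the counts within 2-fold of ESCs below. A gene detected in only 1 of the samples passed the filter through that sample, so its direction was largely set by the filter. Among 1225 genes with several detected probes of which any differed by at least 2-fold, all probes pointed in the same direction for 1147 (93.6%), and 9 had probes with 2-fold differences in opposite directions.

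**Figure D1:**
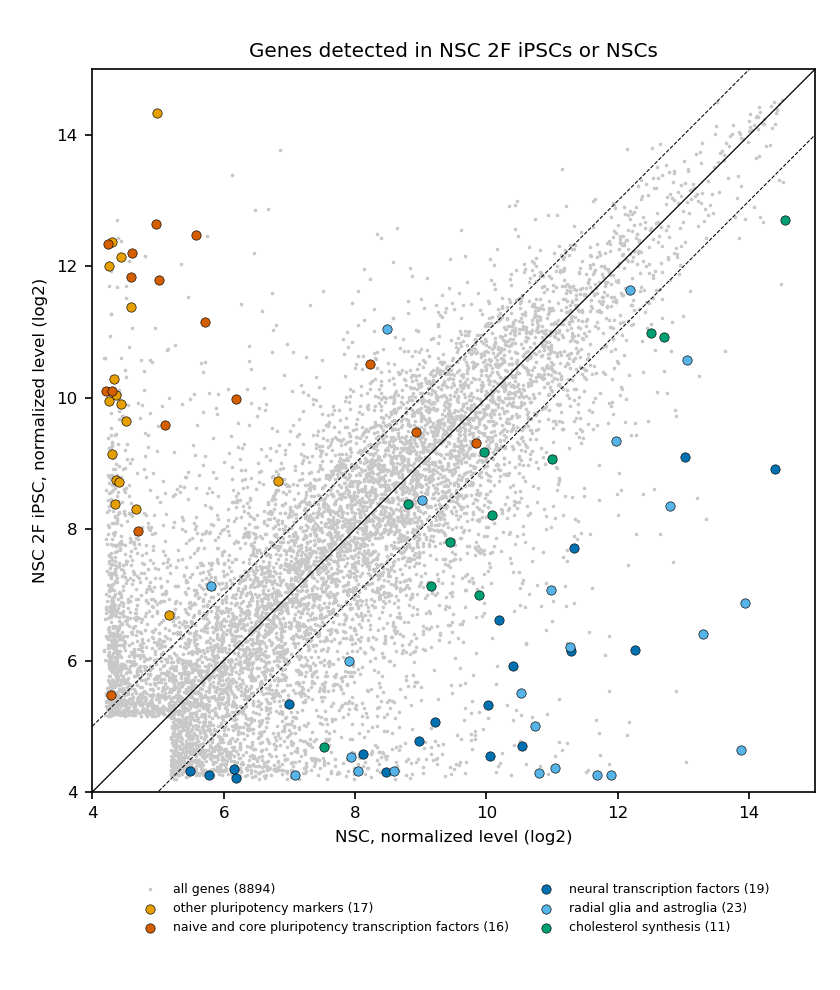
Normalized log2 level of each of 8894 genes in NSC 2F iPSCs (vertical axis) against NSCs (horizontal axis), 1 array each; the solid line marks equal levels and the dashed lines a 2-fold difference. Pluripotency genes lie at the upper left and neural genes at the lower right, and 9 of 11 cholesterol synthesis genes lie below the lower dashed line.

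Both delivered factors stood high. *Pou5f1*, 1 of the 2 factors delivered, had a level of 12.34 in NSC 2F iPSCs, was not detected in NSCs and stood at 12.79 in ESCs, and so was at least 141-fold higher in NSC 2F iPSCs than in NSCs. *Klf4*, the other factor delivered, had 9.98 in NSC 2F iPSCs, 6.18 in NSCs and 10.10 in ESCs, a 13.9-fold difference from NSCs. *Sox2*, which was not delivered, was at 9.31 in NSC 2F iPSCs, 9.84 in NSCs and 9.51 in ESCs. *Myc*, also not delivered, was detected only in NSCs of these samples, at 6.11. Hence both delivered factors were within 2-fold of the ESC level, and *Sox2* was within 2-fold in all 3 samples. Whether the probes also read transcripts of the retroviruses was not tested.

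Genes of pluripotency were high in NSC 2F iPSCs. Of 16 detected transcription factors of the naive and core network, 14 were at least 2-fold higher in NSC 2F iPSCs, none was lower, and the exceptions were *Sox2* and *Gbx2* (9.48 in NSC 2F iPSCs, 8.93 in NSCs). Their median log2 difference was 5.63 (4.91 with undetected values at the floor), where that of all genes was 0.03. At the floor 13 were at least 2-fold higher. Of the 14 higher genes, *Esrrb*, *Klf2*, *Klf4* and *Mybl2* were detected in NSCs. The others passed the detection filter through NSC 2F iPSCs alone, so their direction was largely set by it. *Nanog*, a homeobox gene that stabilizes naive pluripotency, was at 12.64 in NSC 2F iPSCs, undetected in NSCs and at 12.27 in ESCs, at least 174-fold higher than in NSCs. *Esrrb*, an orphan nuclear receptor of the same network, stood at 12.48 in NSC 2F iPSCs, was already detected in NSCs at 5.57 and stood at 12.32 in ESCs, a 120-fold difference from NSCs. *Klf2* and *Klf5*, relatives of the delivered *Klf4*, were 43.7-fold and at least 97.1-fold higher. *Tfap2c*, *Sall4* and *Tbx3* were at least 101-fold, at least 129-fold and at least 29.9-fold higher. Relative to ESCs, 15 of the 16 lay within 2-fold, a share near the 93.6% of all genes, and *Gbx2* was the one below, at 10.61 in ESCs.

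All 17 detected genes of a second list, of markers that are not core transcription factors, were at least 2-fold higher in NSC 2F iPSCs (median log2 difference 5.48, or 4.72 at the floor). Only *Alpl* was detected in NSCs, so the direction of the other genes was largely set by the filter. *Dppa5a*, which encodes an RNA-binding protein of early embryos, showed the largest increase of any gene, to 14.33 in NSC 2F iPSCs, against no detection in NSCs and 14.22 in ESCs (at least 564-fold). A second probe of *Dppa5a* gave 14.41 in NSC 2F iPSCs and 14.46 in ESCs, while the third was undetected in all 3 samples. *Dppa4* was at least 145-fold higher, *Fbxo15* at least 124-fold, *Dnmt3l* (a cofactor of the de novo DNA methyltransferases) at least 112-fold and *L1td1* at least 73.6-fold. The ligands *Fgf4*, *Nodal*, *Lefty1* and *Gdf3* were at least 9.21-fold, 11.6-fold, 29.1-fold and 33.9-fold higher. Of the 17 genes, 16 were within 2-fold of ESCs, a share near the 93.6% of all genes. *Eras* was above ESCs, at 9.14 in NSC 2F iPSCs and 7.97 in ESCs.

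Not all of the 15 largest increases were on a pluripotency list. *Ooep*, a gene of the oocyte and early embryo, had 12.71 in NSC 2F iPSCs, no detection in NSCs and 12.43 in ESCs (at least 183-fold). The X-linked homeobox gene *Rhox5* had 13.40 in NSC 2F iPSCs, 6.13 in NSCs and 11.90 in ESCs (155-fold). *Hspb1*, which encodes a small heat shock protein, *Wfdc2* and the cationic amino acid transporter gene *Slc7a3* were at least 147-fold, 152-fold and 125-fold higher, and *Fabp3*, which encodes a fatty acid binding protein, at least 118-fold. *Chchd10*, which encodes a mitochondrial protein, had 13.77 in NSC 2F iPSCs, 6.86 in NSCs and 14.02 in ESCs (120-fold). In 12 of these 15 genes the transcript was not detected in NSCs. In 14 of 15 the NSC 2F iPSC level was within 2-fold of ESCs, near the 93.6% of all genes, *Rhox5* being the exception.

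**Figure D2:**
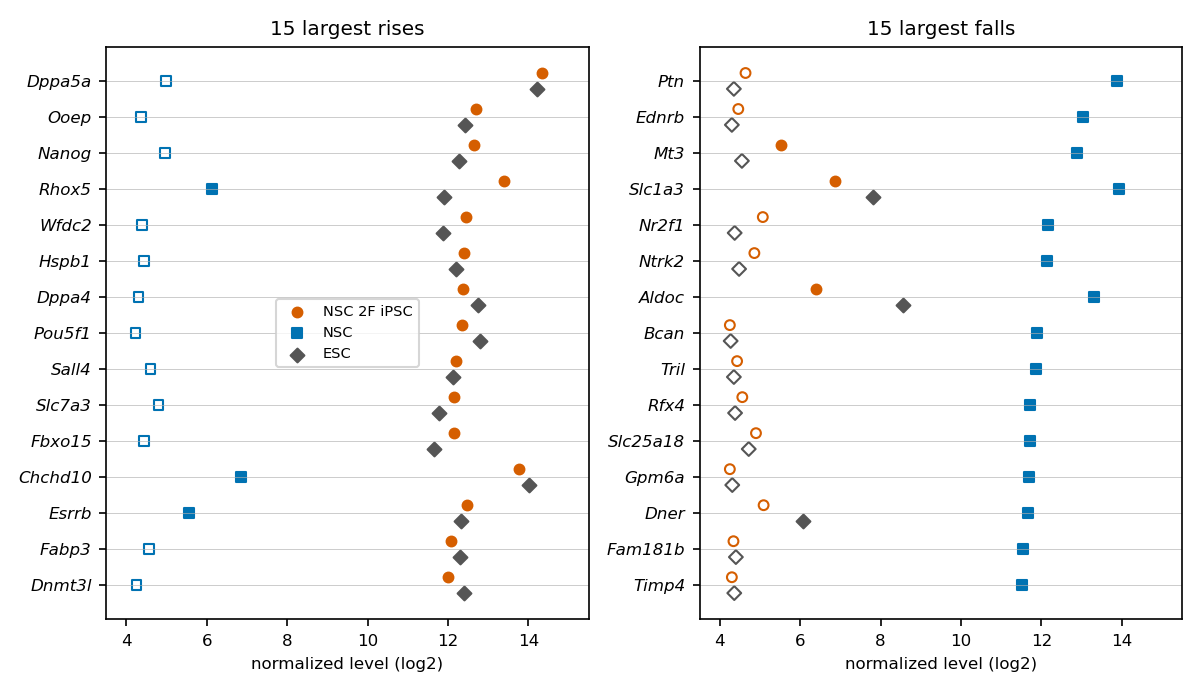
Normalized log2 levels in NSC 2F iPSCs, NSCs and ESCs of the 15 genes with the largest increases (left) and the 15 with the largest decreases (right), 1 array each; open symbols were not detected. NSC 2F iPSC and ESC symbols lie close together and far from NSCs in both panels, with *Aldoc* the gene whose NSC 2F iPSC level fell furthest below that of ESCs.

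Because Oct4 binds the octamer, the promoters of the genes above were searched for it. The promoters are those of RefSeq on GRCm38.p6, from 250 bases before to 50 bases after each gene's start. Of 38 genes in the 15 largest increases or among the higher pluripotency genes, 25 had a promoter in the table, and 2 of these held ATGCAAAT or its reverse complement ATTTGCAT. They are shown because *Zfp42* (*Rex1*), a marker of naive pluripotency, and *Chchd10* were among these genes, and capitals mark the octamer.
Zfp42: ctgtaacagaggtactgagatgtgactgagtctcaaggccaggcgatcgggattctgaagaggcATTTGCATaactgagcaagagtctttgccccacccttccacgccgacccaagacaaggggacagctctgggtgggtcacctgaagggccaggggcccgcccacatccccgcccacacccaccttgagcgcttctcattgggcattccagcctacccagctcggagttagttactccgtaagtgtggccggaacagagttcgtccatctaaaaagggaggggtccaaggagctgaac
Chchd10: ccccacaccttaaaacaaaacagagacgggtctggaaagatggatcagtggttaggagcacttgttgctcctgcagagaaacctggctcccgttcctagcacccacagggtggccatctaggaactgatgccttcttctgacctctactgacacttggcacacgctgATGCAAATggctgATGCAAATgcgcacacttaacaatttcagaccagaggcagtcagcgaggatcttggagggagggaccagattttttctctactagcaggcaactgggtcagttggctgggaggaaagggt
The promoter of *Zfp42* lies at chr8:43306960-43307259 on the minus strand, with an octamer starting at position -186 from the gene's start. That of *Chchd10* lies at chr10:75932880-75933179 on the plus strand, with 2 copies of the octamer, the first at position -83. *Zfp42* stood at 9.59 in NSC 2F iPSCs, was undetected in NSCs and stood at 9.54 in ESCs (at least 21.1-fold). The octamer was in 1.74% of all 32851 promoters, in 6 of 179 promoters (3.35%) of genes at least 16-fold higher in NSC 2F iPSCs, and in 5 of 160 (3.12%) of those at least 16-fold lower. The KLF-type box GGGTGTGG, on either strand, was in 3.56% of all promoters, in 9 of the 179 (5.03%) and in 5 of the 160 (3.12%). The share with an octamer was thus close on both sides. For CpG content, the median ratio of observed to expected CpG was 0.44 in promoters of genes at least 16-fold higher and 0.59 in those at least 16-fold lower, against 0.79 where the gene was within 2-fold and 0.75 for all genes detected.

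The neural program was low in NSC 2F iPSCs. All 19 detected neural transcription factors were at least 2-fold lower than in NSCs (17 with undetected values at the floor), with a median log2 difference of -4.14 (-3.83 at the floor). Members undetected in NSC 2F iPSCs, such as *Zic1*, *Hes5* and *Olig2*, passed the filter through NSCs alone, so their direction was largely set by it. *Nfib*, a nuclear factor I gene of glial development, had 6.16 in NSC 2F iPSCs, 12.26 in NSCs and 6.25 in ESCs (68.3-fold lower). *Zic1* and the Notch target *Hes5* were lower by at least 41.7-fold and 29.8-fold, and *Olig2* by at least 14.2-fold. *Olig1*, a factor of the oligodendrocyte lineage, was below ESCs while still clearly detected, with 8.92 in NSC 2F iPSCs, 14.39 in NSCs and 10.67 in ESCs. In MEF 4F iPSCs *Olig1* was at 9.01, and in the iNdiPSC clones it was undetected. *Nfix* was above ESCs, with 6.14 in NSC 2F iPSCs, 11.29 in NSCs and no detection in ESCs (at least 1.82-fold above ESCs). In the other pluripotent lines *Nfix* was detected too, at 5.44 to 6.54. The 17 factors besides *Olig1* and *Nfix* lay within 2-fold of ESCs, where 93.6% of all genes did.

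Of 23 detected genes of radial glia and astroglia, 19 were at least 2-fold lower in NSC 2F iPSCs, 2 were higher and 2 were neither (median log2 difference -4.28, or -3.90 at the floor). *Ptn*, which encodes the secreted growth factor pleiotrophin, showed the largest decrease of any gene, with no detection in NSC 2F iPSCs or ESCs and 13.88 in NSCs (at least 424-fold lower). *Slc1a3*, the glutamate transporter GLAST of radial glia, had 6.87 in NSC 2F iPSCs, 13.93 in NSCs and 7.80 in ESCs (133-fold lower). *Aldoc*, a glycolytic aldolase of astrocytes, had 6.40 in NSC 2F iPSCs, 13.30 in NSCs and 8.55 in ESCs, and so was 120-fold below NSCs and also 4.45-fold below ESCs. *Fabp7*, the fatty acid binding protein of radial glia, was at least 59.6-fold lower, and the extracellular matrix proteoglycan gene *Bcan* at least 106-fold lower. *Nes*, which encodes the intermediate filament nestin, was 14.9-fold lower, with 7.08 in NSC 2F iPSCs, 10.98 in NSCs and 5.79 in ESCs, and a second probe gave 5.35, 8.06 and no detection in the same order. Hence *Nes* was among the 2 genes of this list that stood above ESCs, the other being *Tnc*. In the other pluripotent lines *Nes* was also above ESCs, at 7.24 to 8.31, and *Tnc* was at 6.58 to 8.35 (6.64 in ESCs). The members that were higher were *Apoe* and *Clu*, 5.87-fold and 2.51-fold, and both are also expressed in ESCs at a similar level (10.96 and 6.97, against 11.05 and 7.13 in NSC 2F iPSCs).

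Of the 15 largest decreases, 5 were of genes on a list. *Ednrb*, the endothelin receptor of glial progenitors and melanoblasts, was at least 236-fold lower in NSC 2F iPSCs, *Ntrk2*, the receptor of BDNF, at least 127-fold, and *Nr2f1*, an orphan nuclear receptor of the developing cortex, at least 129-fold. *Mt3*, the brain metallothionein, was still detected in NSC 2F iPSCs at 5.53, against 12.89 in NSCs and no detection in ESCs (164-fold lower). In the other pluripotent lines *Mt3* was detected too, at 5.42 to 5.98. In the Notch pathway, which keeps NSCs undifferentiated, 8 of 10 detected genes were at least 2-fold lower and none was higher, and *Notch3* and *Hes1* were within 2-fold. The ligand gene *Dll1* was at least 5.74-fold lower, the receptor gene *Notch1* 3.89-fold, and the target genes *Hey1* and *Nrarp* 10.3-fold and 25.5-fold. Among 11 detected neuronal genes 7 were lower and 3 higher. *Stmn2*, a microtubule regulator of growing axons, was the most increased of the 3, with 9.24 in NSC 2F iPSCs, no detection in NSCs and 9.70 in ESCs, and *Map2* went the other way, with 6.38 in NSC 2F iPSCs, 11.86 in NSCs and 6.10 in ESCs.

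**Figure D3:**
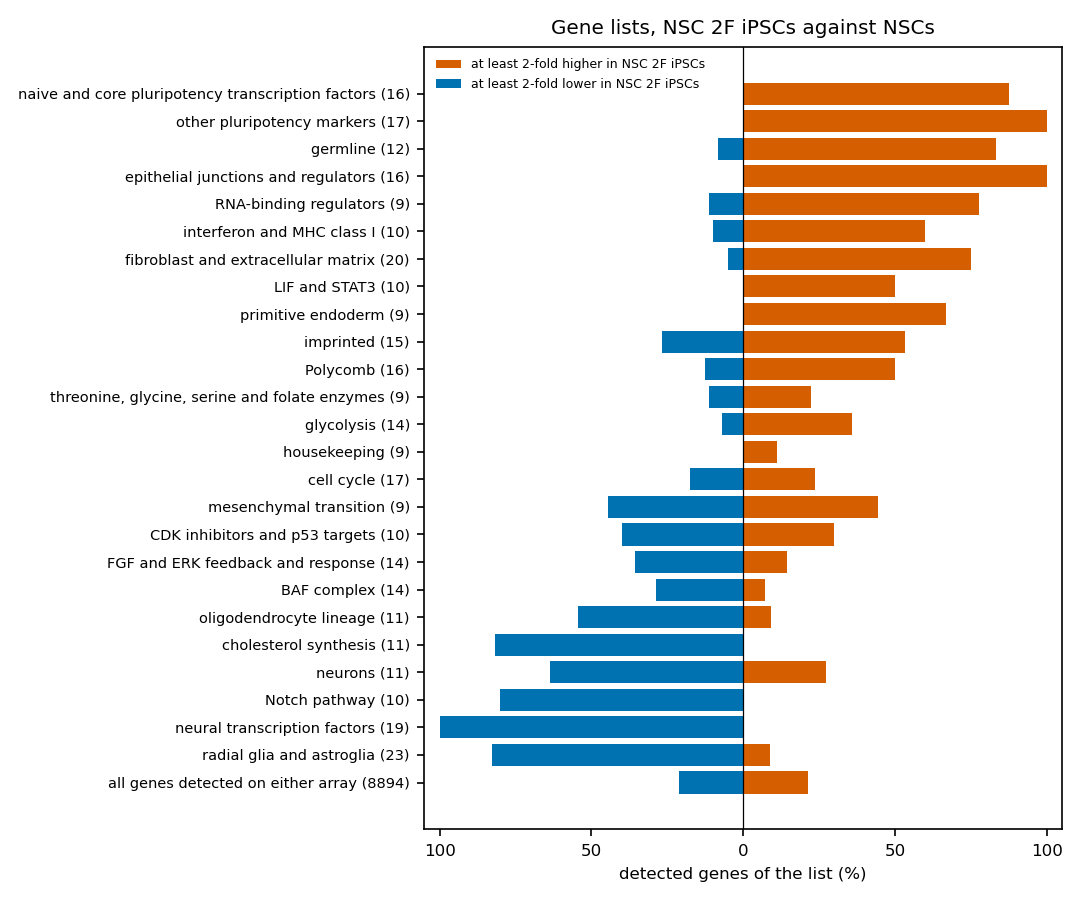
Share of the detected genes of each list (number in brackets) that was at least 2-fold higher (right, orange) or at least 2-fold lower (left, blue) in NSC 2F iPSCs than in NSCs, for lists with 9 or more detected genes, ordered by median difference. The bottom bar is the background of all 8894 genes, 21.3% higher and 21.1% lower.

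Epithelial genes were also high in NSC 2F iPSCs. Pluripotent stem cells grow as compact epithelial colonies, and a mesenchymal-to-epithelial transition is an early step in the reprogramming of fibroblasts. All 16 detected genes of epithelial junctions and their regulators were at least 2-fold higher than in NSCs (14 at the floor), and none of the 16 was detected in NSCs. Each thus passed the detection filter through NSC 2F iPSCs alone, so their shared direction was set by the filter. *Ocln* and *Crb3*, also on the list, were detected in neither sample. *Cdh1*, which encodes E-cadherin, had 10.78 in NSC 2F iPSCs and 10.32 in ESCs (at least 48.1-fold above NSCs). The claudin gene *Cldn4* was at least 68.2-fold higher, the keratin gene *Krt8* at least 46.4-fold and the splicing regulator *Esrp1* at least 17.4-fold. Of these 16 genes, 6 were above ESCs by at least 2-fold and 10 were within it. *Grhl2*, a transcription factor of epithelia, stood furthest above, at 9.29 in NSC 2F iPSCs and 7.06 in ESCs. *Grhl2* was also above ESCs in MEF 4F iPSCs (8.60) and in the iNdiPSC clones (9.93 and 9.53). The same lines had *Cldn4* at 10.64 to 11.28 (9.89 in ESCs) and *Krt8* at 9.57 to 11.70 (9.24 in ESCs). On the mesenchymal side *Zeb1*, a repressor of *Cdh1*, was 20.4-fold lower than in NSCs, and *Cdh2*, which encodes N-cadherin, and *Zeb2* were each at least 4.68-fold lower. However, the mesenchymal list as a whole was divided, with 4 of 9 detected genes higher and 4 lower, or 2 higher and 4 lower at the floor. *Mmp2* was at least 7.53-fold higher and *Snai1* at least 1.92-fold.

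In cholesterol synthesis 9 of 11 genes were at least 2-fold lower in NSC 2F iPSCs and none was higher (median log2 difference -1.84). All 11 were within 2-fold of ESCs, as were 93.6% of all genes. *Dhcr7*, the enzyme of the last step of the pathway, had 7.0 in NSC 2F iPSCs, 9.88 in NSCs and 6.96 in ESCs (7.37-fold lower), and *Hmgcs1*, which starts the pathway, was 3.58-fold lower. *Insig1* and *Srebf2*, which regulate it, were within 2-fold. In glycolysis 5 of 14 genes were higher and 1 was lower. The glucose transporter genes *Slc2a3* and *Slc2a1* were 82.9-fold and 6.39-fold higher, and *Hk2* and *Pfkp*, for a hexokinase and a phosphofructokinase, 11.1-fold and 8.10-fold. The later enzymes *Gapdh*, *Pgk1*, *Pgam1* and *Pkm* were within 2-fold.
Of 16 detected Polycomb genes, 8 were higher and 2 lower in NSC 2F iPSCs, and all 16 were within 2-fold of ESCs, as were 93.6% of all genes. *Mtf2*, *Suz12* and *Eed*, for subunits of the complex that methylates histone H3, were 16.4-fold, 3.97-fold and 3.64-fold higher, while its catalytic subunit gene *Ezh2* had 10.55 in NSC 2F iPSCs and 10.45 in NSCs. In the complex that ubiquitinates histone H2A, *Cbx7* was at least 13.4-fold higher, and *Cbx8* and *Bmi1* were at least 3.38-fold and 4.52-fold lower. Among 14 BAF (SWI/SNF) chromatin remodeling genes, 4 were lower, 1 was higher and 9 were neither, with a median log2 difference of -0.64 (-0.37 at the floor). The lower share was not far from the 21.1% of all genes. *Smarcd3* and *Smarca2*, subunits typical of neural and other differentiated cells, were at least 14.8-fold and 8.27-fold lower, and *Smarcd2* was 5.80-fold higher. Of 9 detected RNA-binding regulators, 7 were higher, led by *Igf2bp1* (at least 107-fold) and *Rbm47* (at least 27.8-fold), and *Lin28a*, the inhibitor of let-7 processing, was at least 11.8-fold higher.
In the germline list, whose genes include known targets of DNA methylation in somatic cells, 10 of 12 detected genes were higher (8 at the floor) and *Tdrkh* was lower. Of the higher genes only *Rhox5* was detected in NSCs, so the direction of the others was largely set by the filter. *Tex19.1*, *Rhox9* and *Dazl* were at least 91.8-fold, 42.4-fold and 9.36-fold higher. Of 9 housekeeping genes, 8 were within 2-fold, and the X-linked *Hprt* was 4.43-fold higher (12.57 in NSC 2F iPSCs, 10.43 in NSCs and 11.85 in ESCs).

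To measure how completely the profile had shifted, each probe that differed at least 2-fold between NSCs and ESCs was placed on a line on which NSCs are at 0 and ESCs at 1. Over 5298 such probes the median position of NSC 2F iPSCs was 0.93 (quartiles 0.74 and 1.08), and 4813 probes (90.8%) lay past the midpoint. For 2683 probes that were higher in NSCs the median was 0.95, and for 2615 that were higher in ESCs it was 0.90. The corresponding medians over all 5298 probes were 0.88 for MEF 4F iPSCs, 0.91 for iNdiPSC clone 1 and 0.93 for the second iNdiPSC clone, none of which was made from brain-derived NSCs. All 4 lines were read against the same NSC and ESC arrays, and the differences between their medians were not tested.

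**Figure D4:**
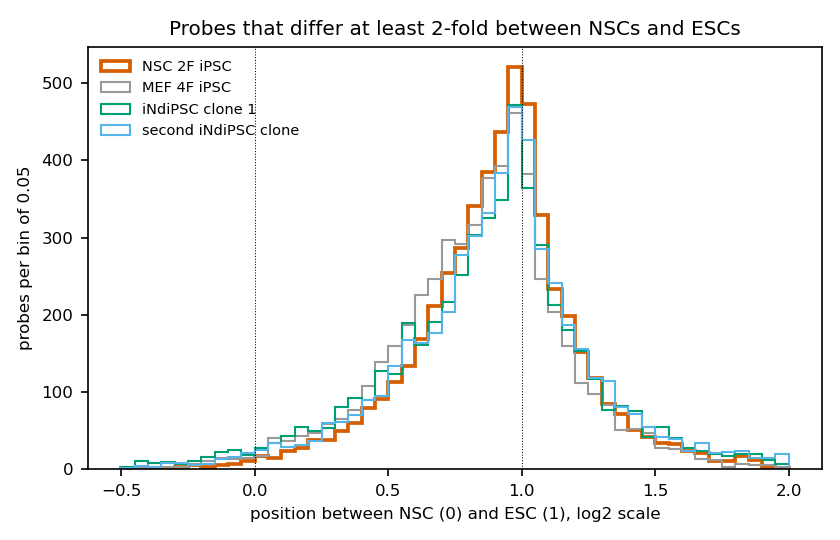
Number of probes (vertical axis, bins of 0.05) at each position between NSCs (0) and ESCs (1) on the log2 scale, for the 5298 probes that differed at least 2-fold between NSCs and ESCs, in NSC 2F iPSCs (thick orange) and 3 other pluripotent lines. All 4 curves peak near 1, and 52 probes of NSC 2F iPSCs lie outside the range drawn.

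Of the 5299 probes that differed at least 2-fold between NSC 2F iPSCs and NSCs, 4778 (90.2%) lay within 2-fold of ESCs. The share was larger for probes that were lower in NSC 2F iPSCs (2516 of 2663, 94.5%) than for those that were higher (2262 of 2636, 85.8%), and most of the rest of the higher probes were above ESCs (317) rather than below (57). Of the 2683 probes that were higher in NSCs, 143 (5.33%) were at least 2-fold above ESCs and detected in NSC 2F iPSCs. Of the 2615 that were higher in ESCs, 148 (5.66%) were at least 2-fold below ESCs. Without the background correction these counts were 23 and 21, and on the authors' processed values 335 and 362. Both counts were larger in MEF 4F iPSCs and the iNdiPSC clones, which differ from NSC 2F iPSCs in their donor cells, and these differences were not tested. The first was 275 in MEF 4F iPSCs, 250 in iNdiPSC clone 1 and 187 in the second clone. The second was 282, 350 and 293 in the same order.
Few genes stood at the NSC level and away from ESCs. Of 5118 genes within 2-fold of NSCs, 98 were at least 2-fold above ESCs and 65 at least 2-fold below. *Egr1*, an immediate early transcription factor of ERK signaling, led the first group, with 11.87 in NSC 2F iPSCs, 12.53 in NSCs and 8.03 in ESCs (14.3-fold above ESCs). Of the whole FGF and ERK list, 4 of 14 detected genes were at least 2-fold above ESCs and 2 below, with a median log2 difference from ESCs of 0.21 (0.05 at the floor). *Egr2* and the ERK inhibitor gene *Spry4* were also in the first group, and *Phlda1*, another early response gene, stood at 10.67 in NSC 2F iPSCs, 9.34 in NSCs and 7.88 in ESCs. *Egr1* was likewise above ESCs in the MEF 4F iPSCs (12.25) and in both iNdiPSC clones (13.34 and 13.20), so the low sample was the ESCs. *Lrrc57* had 7.63 in NSC 2F iPSCs and 8.26 in NSCs and was not detected in ESCs. *Vasn*, *Tgfbr2* and *Timp3*, which are linked to TGF-beta signaling or the extracellular matrix, were 4.98-fold, 4.89-fold and 4.63-fold above ESCs. *Lbh*, a transcription cofactor gene, was 5.26-fold below NSCs and 6.02-fold above ESCs. In the other pluripotent lines *Lbh* was at 7.78 to 8.59 (6.10 in ESCs), *Vasn* at 8.20 to 8.92 (6.32) and *Timp3* at 7.81 to 9.41 (6.55). *Phlda1* and *Spry4* were above ESCs there too, at 11.16 to 11.56 and 8.16 to 8.55. *Tgfbr2* (5.64 in ESCs) was at 9.20 in MEF 4F iPSCs and at 6.28 and 6.01 in the iNdiPSC clones, where *Lrrc57* was undetected.
Below ESCs, *Ipp* was the clearest gene at the NSC level, with 6.70 in NSC 2F iPSCs, 6.66 in NSCs and 10.26 in ESCs, and with 10.47 to 11.81 in the 3 other pluripotent lines. *Apoa2*, which encodes an apolipoprotein, had 5.91 in NSC 2F iPSCs, no detection in NSCs and 8.80 in ESCs, and *Ddit3*, a transcription factor of the stress response, had 6.05, 5.72 and 8.12 in the same order. Both were also below ESCs in the other pluripotent lines. *Ddit3* was at 5.25 to 6.05 there, and *Apoa2* was at 6.74 in MEF 4F iPSCs and undetected in the iNdiPSC clones. *Mgarp*, which encodes a mitochondrial protein, was 7.01-fold above NSCs and 4.59-fold below ESCs. In the other pluripotent lines *Mgarp* was at 8.63 to 9.13 (10.23 in ESCs).
The study's fold criteria for a transcriptional memory of NSCs ask that a gene be at least 2-fold above ESCs and above MEF 4F iPSCs in NSC 2F iPSCs, and at least 2-fold above MEFs or ESCs in NSCs. On the values here 12 probes met them with either comparison of the last criterion and 2 with both. The 2 probes, detected in both samples, were those of the X-linked *Tmem47* (8.07 in NSC 2F iPSCs, 9.22 in NSCs, 6.16 in ESCs) and *Sesn3*, a stress-induced gene (6.43, 7.22 and 5.31 in the same order).

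The genes above both NSCs and ESCs formed a larger group than those below both. With undetected values at the floor, 202 of 8894 genes (2.27%) were at least 2-fold above both in NSC 2F iPSCs and 56 (0.63%) below both. Of the 202 genes, 44 (21.8%) are on the X chromosome, which holds 334 (3.76%) of the 8894 genes. Over genes detected in NSC 2F iPSCs or ESCs, 393 of 8193 (4.8%) were at least 2-fold higher and 213 (2.6%) at least 2-fold lower in NSC 2F iPSCs than in ESCs. For the 300 X-linked genes the counts were 79 higher (26.3%) and 2 lower (*Ccdc160* and *Porcn*), against 313 of 7884 autosomal genes higher (3.97%) and 208 lower (2.64%). The X-linked median log2 difference from ESCs was 0.67, where the medians of the 19 autosomes lay between -0.11 and 0.07, and 275 of the 300 genes (91.7%) were on the higher side, against 38.0 to 56.6% of genes for single autosomes. Restricted to 242 X-linked genes detected in both samples, the median difference was 0.60, or 1.51-fold. The excess ran along the chromosome: in 4 consecutive blocks of 75 genes each the medians were 0.74, 0.67, 0.59 and 0.60.
The X chromosome was less shifted in the other lines, whose medians against the same ESC array were 0.06 in MEF 4F iPSCs, 0.17 in iNdiPSC clone 1 and 0.11 in the second clone. Their shares of X-linked genes at least 2-fold above ESCs were 8.99%, 15.6% and 13.7% in the same order. For autosomal genes these shares were 7.34%, 8.05% and 6.29%. Against NSCs, the X-linked median in NSC 2F iPSCs was 0.39, with 35.6% of its 334 genes higher by 2-fold or more and 20.1% lower, where the autosomal medians lay between -0.13 and 0.17. NSCs were themselves above ESCs on the X chromosome, by a median of 0.38 over 299 genes, against -0.02 on the autosomes.

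**Figure D5:**
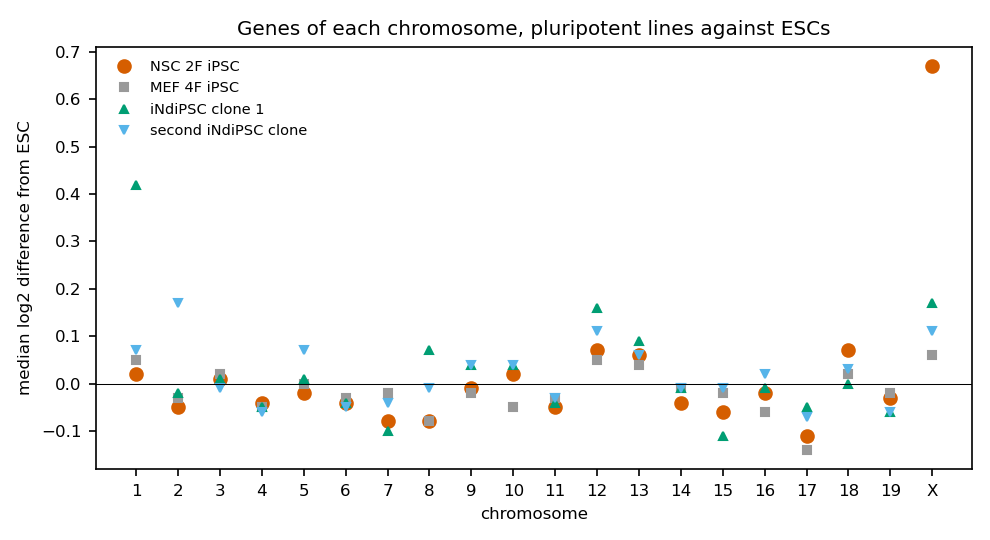
Median log2 difference from ESCs of the genes of each chromosome, over genes detected in the line or in ESCs, for NSC 2F iPSCs (large orange circles) and 3 other pluripotent lines; chromosome Y, with 5 genes, is left out. The X chromosome of NSC 2F iPSCs, at 0.67, is the highest point, and their autosomes lie between -0.11 and 0.07.

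*Xist* was highest in NSCs, whereas the Y-linked genes *Eif2s3y* and *Kdm5d* were undetected in both NSC 2F iPSCs and NSCs. *Xist* was undetected by its first probe in NSC 2F iPSCs, had 9.18 in NSCs and was undetected in ESCs (at least 16.3-fold lower in NSC 2F iPSCs than in NSCs). A second *Xist* probe gave 5.49 in NSC 2F iPSCs and 7.55 in NSCs, both detected, and no detection in ESCs. *Eif2s3y*, a Y-linked translation factor gene, was not detected in NSC 2F iPSCs or NSCs and had 10.03 in ESCs, 10.16 in MEF 4F iPSCs and 10.22 to 10.72 in the iNSCs and the iNdiPSC clones. *Kdm5d*, a Y-linked histone demethylase gene, was likewise undetected in NSC 2F iPSCs and NSCs and had 6.36 in ESCs. *Uty* had 5.25 in NSC 2F iPSCs, 5.21 in NSCs and 6.25 in ESCs, the first 2 near the floor. *Kdm6a*, the X-linked relative of *Uty* that escapes X inactivation in mice, had 10.76 in NSC 2F iPSCs, 8.69 in NSCs and 9.32 in ESCs. The iNdiPSC clones had *Kdm6a* at 10.42 and 10.40 and MEF 4F iPSCs at 9.78. With the sex of the cells not labelled and 1 array for each line, sex and reprogramming cannot be told apart in the X-linked values.
Of the X-linked genes, *Xlr4a* stood furthest above ESCs where ESCs expressed the gene, with 12.88 in NSC 2F iPSCs, 6.68 in NSCs and 9.0 in ESCs (14.7-fold above ESCs). *Gm14685* was next, with 9.19 in NSC 2F iPSCs, 6.79 in NSCs and 5.33 in ESCs (14.6-fold above ESCs). *Xlr4c* and *Xlr5a*, with 8.82 and 8.28 in NSC 2F iPSCs, were undetected in NSCs and ESCs. The *Xlr* genes are near copies of one another, so their probes may share transcripts. *Efhc2* had 9.73, no detection and 6.53 in NSC 2F iPSCs, NSCs and ESCs. *Xlr4a* was high in both iNdiPSC clones too, with 12.93 and 12.61. So were *Gm14685* (9.02 and 8.35), *Xlr4c* (9.04 and 8.67), *Xlr5a* (8.61 and 7.93) and *Efhc2* (9.56 and 9.10). In MEF 4F iPSCs *Xlr4a* was at 11.80, *Gm14685* at 8.49, *Xlr4c* at 5.98, *Xlr5a* at 6.61 and *Efhc2* at 6.93. *Rlim*, which encodes a ubiquitin ligase that promotes *Xist* expression, had 7.66 in NSC 2F iPSCs, 6.01 in NSCs and 6.16 in ESCs, and *Usp9x*, which encodes a deubiquitinase, had 9.16, 6.08 and 7.40. In the iNdiPSC clones *Rlim* was at 7.72 and 7.79 and *Usp9x* at 8.20 and 8.30. Of the 79 X-linked genes at least 2-fold above ESCs, 54 were also at least 2-fold above NSCs and 18 were within 2-fold of NSCs.

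Genes of fibroblasts and the extracellular matrix were above ESCs as well. Of 20 detected genes, 15 were at least 2-fold higher in NSC 2F iPSCs than in NSCs and 1 was lower (*Col5a2*, at least 1.5-fold with the floor), and 14 were at least 2-fold above ESCs and none below. Of the 20, 19 were detected in NSC 2F iPSCs and 10 in NSCs, so the direction from NSCs was in part set by the filter. *Col1a2*, *Col6a2*, *Pdgfrb*, *Postn* and *Fap*, also on the list, were detected in MEFs and in neither of these samples. The median log2 difference was 2.02 from NSCs and 1.60 from ESCs (1.73 and 1.37 at the floor), and without the background correction the median from ESCs was 0.96. *Mmp3*, a matrix metalloproteinase gene, had 9.44 in NSC 2F iPSCs, no detection in NSCs and 5.74 in ESCs. *Dcn*, which encodes the proteoglycan decorin, had 8.83 in NSC 2F iPSCs, no detection in NSCs and 5.91 in ESCs. *Lox*, which encodes the collagen cross-linking enzyme, had 9.72 in NSC 2F iPSCs, no detection in NSCs and 7.33 in ESCs. *Col1a1* and *Col3a1*, for fibrillar collagens, had 7.29 and 7.25 in NSC 2F iPSCs and were undetected in both NSCs and ESCs. In MEFs *Mmp3* was at 8.13, below its level in NSC 2F iPSCs. The MEF levels of *Dcn*, *Lox*, *Col1a1* and *Col3a1* were above those in NSC 2F iPSCs, at 12.71, 13.98, 12.46 and 11.91. Of 8 fibroblast markers 5 were detected in NSC 2F iPSCs, 1 in NSCs (*Thy1*), 2 in ESCs and 8 in MEFs, and *Col1a2*, *Postn* and *Pdgfrb* were not detected in NSC 2F iPSCs. The log2 of their summed level was 10.39 in NSC 2F iPSCs, 8.03 in NSCs, 8.24 in ESCs and 14.81 in MEFs. The median difference of the 20 genes from ESCs was 1.59 in MEF 4F iPSCs, 0.62 in iNdiPSC clone 1 and 0.17 in the second clone, all grown on feeder cells as well. The 20 genes were chosen by detection in NSC 2F iPSCs or NSCs, which favors NSC 2F iPSCs over the other lines in these medians. The part of feeder cells in these values was not tested, and fewer cells of a type and less RNA for each cell cannot be told apart in such samples.
Among the 10 genes furthest above both NSCs and ESCs, *Ccn1*, a secreted matrix protein gene that responds to YAP, had 10.12 in NSC 2F iPSCs, no detection in NSCs and 6.83 in ESCs, and it was near 10 in all other iPSC lines (10.17 to 10.59). *Nppb*, which encodes a natriuretic peptide, had 8.46 in NSC 2F iPSCs and was undetected in NSCs and ESCs, with 9.27 in MEF 4F iPSCs and 6.48 and 7.28 in the iNdiPSC clones. *Cryba4*, a crystallin gene, had 8.23 in NSC 2F iPSCs and was undetected in NSCs and ESCs, with 5.77 as its highest level in the other pluripotent lines. Among the genes below both, *Scd1*, which encodes a fatty acid desaturase, had 7.92 in NSC 2F iPSCs, 11.57 in NSCs and 9.48 in ESCs, and *Tle6*, a gene of the oocyte and early embryo, had 7.91, 9.37 and 9.44 in the same order.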

How the data were processed

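Total RNA of 8 mouse cell samples was hybridized to Illumina bead arrays, 1 for each sample. The authors deposited linear bead intensity values from BeadStudio 3.2, without normalization, each with a detection p-value from control beads. They also deposited a log2 matrix, for which the submitters' processing notes name RMA and lumi without parameters. Every column used was matched to its sample by name.

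Levels were recomputed from the intensities with neqc in limma 3.58.1 (R 4.3.3). It estimates background by way of the p-values, adds 16 as an offset, equalizes quantiles over the 8 arrays and takes log2. The procedure was tested on simulated data. Of the probes, 23978 name 1 gene, updated by gene identifier to the symbols of GRCm38.p6, and 1719 (6.69%) name none here. For each of 16593 genes the probe of highest mean level stood for the gene. A difference counted at 2-fold or more, with no test. Named genes were the 15 largest increases and decreases with undetected values at the floor, the 10 furthest above or below ESCs, or beyond both samples, members of 33 gene lists as examples, the delivered factors and genes the study names. *Stmn2*, *Rlim*, *Usp9x*, *Ccdc160*, *Porcn*, *Tmem47*, *Sesn3*, *Kdm5d* and *Uty* were also named after their values were seen. The comparison and the lists were chosen with earlier results of these data known. Alternatives were other normalizations, offsets, detection filters and thresholds and the authors' log2 values. With 1 array a sample, precision is limited by that number.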

Additional observations from a re-analysis of the deposited data

How the results depend on the processing

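No paired analysis was possible because each cell sample has 1 array, and for the same reason no replicate could be left out. The counts of higher and lower probes were 1273 and 1335 without the background correction, 1453 and 1635 where detection in both samples was asked for, and 964 and 992 at a 4-fold threshold. The share of changed probes within 2-fold of ESCs was 95.3% without the background correction, 91.3% with scaling to the 75th percentile, 81.3% on the authors' processed values, 93.9% with an offset of 50, 92.4% with detection in both samples, 91.1% with undetected values at the floor, 86.5% at 4-fold and 89.2% with 1 probe for each gene. The median position between NSCs and ESCs was 0.949, 0.918, 0.944, 0.911, 0.953 and 0.958 without the background correction, on the authors' values, with the offset of 50, with detection in both samples, at the floor and at 4-fold. Probes of NSCs still above ESCs and of ESCs still below them numbered 23 and 21 without the background correction, 335 and 362 on the authors' values, 52 and 46 with the offset of 50, 93 and 56 with detection in both samples, and 11 and 11 at 4-fold. In alternatives added after seeing the data, the shares of X-linked and autosomal genes at least 2-fold above ESCs were 9.67% and 1.12% without the background correction, 37.0% and 7.04% on the authors' values, 17.3% and 2.02% with the offset of 50, and the autosomal share was 3.29% with 75th percentile scaling and 3.16% at the floor; the X-linked share was the larger in each of these and when 3 arrays were normalized alone. The fibroblast median above ESCs (main value 1.60) was 0.96 without the background correction. A detection p under 0.05 or no filter left the probe counts as they were. Scaling to the 75th percentile moved the median difference of all probes to 0.12 (main value 0.02). Of 33 list medians and 186 named genes, none that differed at least 2-fold from NSCs changed direction under the alternatives run on them. Below 2-fold fell 7 lists and 14 genes without the background correction, 6 lists and 5 genes with the offset of 50, 4 lists and 3 genes at the floor, 1 list with 75th percentile scaling and 1 gene with the mean over its probes. Without the background correction the neuron median was -0.98 and the LIF and STAT3 median 0.66, and *Clu*, *Cbx8*, *Snai1*, *Rlim* and *Col5a2* were among the genes. Why the values moved was not tested.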

Other observations

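Some groups that were not described above also differed between NSC 2F iPSCs and NSCs, as values of single arrays. Of 17 detected cell cycle genes, 4 were at least 2-fold higher and 3 lower in NSC 2F iPSCs, near the background shares of all genes, but the D cyclins were divided: *Ccnd1* and *Ccnd2* were 7.49-fold and 25.9-fold lower, while *Ccnd3* and *Ccne1*, which encodes cyclin E1, were 4.19-fold and 4.24-fold higher. Of the cyclin-dependent kinase inhibitors, *Cdkn2c* was 20.9-fold lower, with 5.39 in NSC 2F iPSCs and 9.78 in NSCs, and *Cdkn1c*, an imprinted gene, was 5.55-fold higher. Of 15 detected imprinted genes 8 were higher and 4 lower, and 14 were within 2-fold of ESCs, a share near the 93.6% of all genes. *Igf2*, *Grb10*, *Slc38a4* and *Phlda2* were at least 41.1-fold, 24.4-fold, 26.0-fold and 22.7-fold higher, and *Nnat* was lower by at least 24.7-fold, *Gnas* by 11.3-fold and *Mest* by 8.90-fold. Of 10 detected genes of interferon response and MHC class I, 6 were higher and 1 was lower (median log2 difference 2.05). *Ifitm3*, which is also expressed in ESCs, was 17.7-fold higher, and *B2m*, the light chain of MHC class I, was 2.22-fold lower.

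The list for LIF and STAT3 signaling, which supports mouse naive pluripotency, holds pathway members such as *Jak1* and *Stat3* as well as targets. Of its 10 detected genes 5 were higher, among them the delivered *Klf4*, and none was lower. The feedback inhibitor gene *Socs3* was at least 27.7-fold higher. The receptor genes *Lifr* and *Il6st* were within 2-fold (5.22 and 6.57 in NSC 2F iPSCs, 5.87 and 5.88 in NSCs). Of 39 Hox genes on the list, 6 were detected, 2 higher and 2 lower, or 0 and 1 at the floor, where *Hoxa5* was the lower gene, with no detection in NSC 2F iPSCs and 7.52 in NSCs.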
